A study of Mus musculus with 75 samples.

Results

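The genotype dependence of the liver response to AM251 was measured in mice fed a high-fat diet. AM251 is an inverse agonist of cannabinoid receptor 1 (CB1), and the question was which of its transcript changes differed between mice with and without that receptor. The members were the liver arrays of the 4 high-fat groups, taken by their titles: 19 of the 75 arrays of the series. The titles number the WT vehicle arrays as samples 1 to 5 and give the other groups running numbers. They were wild-type (WT) mice given AM251 (n = 5), WT mice given vehicle (n = 5), CB1 knockout (KO) mice given AM251 (n = 5) and KO mice given vehicle (n = 4). All were males. The knockouts carried the CB1-/- allele in every tissue, were backcrossed to C57BL/6J for 10 generations and rederived onto C57BL/6N, and the WT mice were their littermates. From 2 months of age all 4 groups ate a diet with 59.4% of its energy as fat for 14 weeks. AM251 at 10 mg per kg, or its vehicle 0.5% methylcellulose, was given by oral gavage on 2 afternoons, and liver was taken the next morning. The quantity described for each gene is the AM251 effect (AM251 minus vehicle) in WT mice minus the same effect in KO mice, here called the interaction. A negative interaction means that AM251 lowered the gene more, or raised it less, in WT than in KO livers. Values are log2 microarray intensities, so a difference of 1 is a 2-fold change.

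CB1 is the main cannabinoid receptor of the brain and is also present in peripheral tissues, among them liver, where its stimulation in rodents is known to raise fatty acid synthesis. An inverse agonist lowers the basal activity of its receptor, and the receptor-null mouse serves to show which effects of the compound need the receptor. Because the deletion is global, the design does not tell receptors in hepatocytes from receptors in the brain or elsewhere. In hepatocytes the genes of cholesterol and fatty acid synthesis are driven by the sterol regulatory element-binding proteins (SREBPs), which the INSIG proteins retain in the endoplasmic reticulum when sterols are plentiful. Fatty acid oxidation genes are driven in large part by the nuclear receptor PPARα.

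The 19 arrays resembled each other closely, with a correlation over all genes of 0.985 to 0.996 between any 2 of them and array medians of 25.9 to 28.5 on the intensity scale. Cnr1, the gene of CB1, had log2 intensities of 5.81, 5.78, 5.83, 5.71 and 6.05 in WT AM251 livers and 5.51, 5.92, 5.94, 5.99 and 5.90 in WT vehicle livers. It had 5.82, 5.58, 5.82, 5.86 and 6.13 in KO AM251 livers and 5.84, 6.09, 5.59 and 5.79 in KO vehicle livers. The 4 groups overlapped, and the second, dimmer Cnr1 probe set had an interaction of -0.11, against -0.03 for the first. Where these probes lie relative to the deleted sequence was not known here, so the values do not check the genotype. The summed intensity of 9 hepatocyte markers was 96370 to 104300 in WT AM251 livers, 98690 to 108100 in WT vehicle livers, 100200 to 110000 in KO AM251 livers and 102700 to 109800 in KO vehicle livers, and Tat, described below, was their only member with a called interaction. The 9 lists of other cell types held 0 called genes, against 0.564% of all genes. The sum of 10 endothelial markers was 3805 to 4205 in KO vehicle livers and 3016 to 3751 in the other 3 groups, and that of 6 exocrine pancreas markers was 882 to 1517 in KO livers and 573 to 983 in WT livers. The part of such cells in the results was not tested, and in whole liver fewer cells of a type and less RNA per cell cannot be told apart.

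Over all 19147 genes tested, limma called an interaction for 108 (0.564%) at an adjusted p under 0.05, 71 of them more negative in WT livers (0.371%) and 37 more positive (0.193%). AM251 changed 366 genes in WT livers (1.91%), of which 170 rose (0.888%) and 196 fell (1.02%). In KO livers it changed 2 (0.0104%), Cyp2c55 and Cyp2c29, both upward, with 644 genes at an unadjusted p under 0.05 against 2154 in WT livers. KO livers differed from WT livers in 440 genes under AM251 (2.3%) and in 228 under vehicle (1.19%). Some of these counts rested on single arrays. The interaction was called for 66 genes without KO AM251 array 46, 67 without KO vehicle array 42 and 70 without WT vehicle array 4. The WT effect was called for 233 without WT vehicle array 2, and the KO minus WT difference under AM251 for 291 without WT AM251 array 38. The genotype difference in high-fat vehicle liver was called for 75 without KO vehicle array 44, 80 without WT vehicle array 2, 96 without KO vehicle array 42 and 117 without WT vehicle array 4. These contrasts share arrays, so they are views of the same 4 groups and not independent results.

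**Figure D1:**
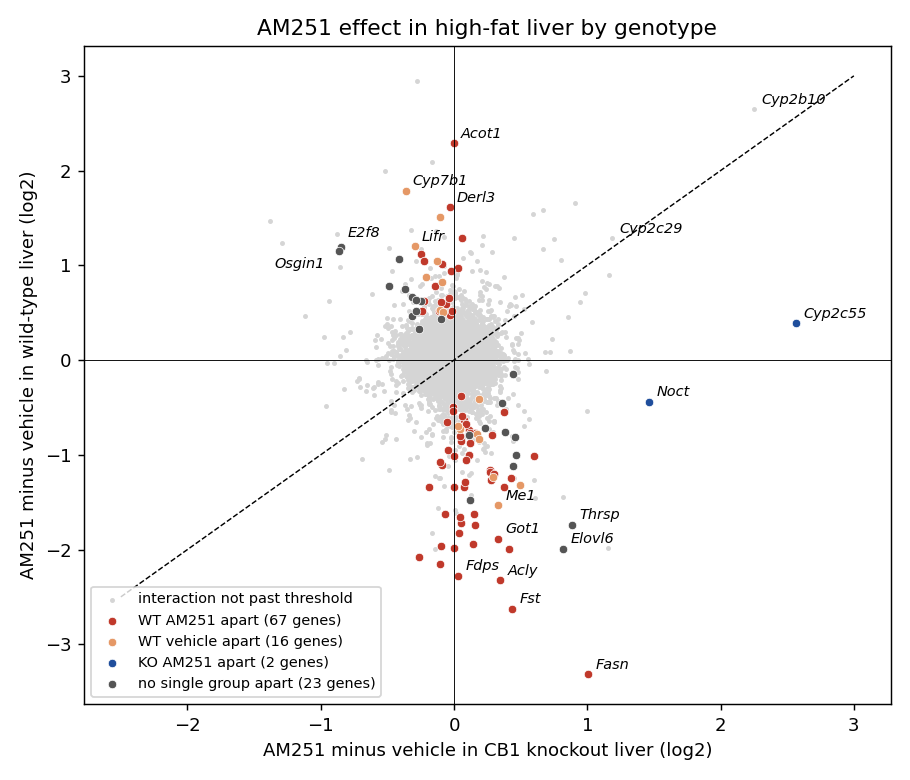
The AM251 effect in WT livers (vertical axis, log2) is plotted against the effect in KO livers (horizontal axis, log2) for all 19147 genes. The coloured points are the 108 genes with a called interaction, coloured by the group that stood apart, and the dashed line marks equal effects. Most called genes lie near 0 on the KO axis, Cyp2c55 and Noct lie far to the right, and Cyp2c29 and Cyp2b10 lie near the dashed line.

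Each gene was then described by which of the 4 groups stood apart. A group was said to stand apart when its mean lay farther from the nearest other mean than the other 3 means lay from each other. It was called separate when, in addition, none of its arrays fell inside the range of the arrays of the other 3 groups. Genes with their largest gap between the second and the third mean were called 2 against 2, and the rest graded. The class uses the same values as the interaction test, so it describes the called genes and supports nothing about them.

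The WT AM251 group stood apart in 67 of the 108 genes. It was the low group in 50, against 5.54% of all genes, and separate in 43 of these, against 0.543%. It was the high group in 17, against 7.05% of all genes, and separate in 13, against 0.334%. The WT vehicle group stood apart in 16 genes, low in 8 (8.38% of all genes) with 4 separate (0.24%), and high in 8 (11% of all genes) with 0 separate. The KO AM251 group stood apart, and was high, in 2 genes (2.9% of all genes), with 1 separate (0.0157%). The KO vehicle group stood apart in 0 called genes. Its share of all genes is not given here, so this 0 has nothing to be compared with. In 10 genes the means of WT AM251 and KO vehicle lay above those of the other groups (3.89% of all genes). In 5 the means of WT vehicle and KO AM251 did (2.41%), and 8 were graded (19.4%). In both pairings the arrays of the high pair overlapped those of the other groups in every called gene. For 73 of the 108 genes the class was the same without any single array. Among the rest, leaving out each of the 19 arrays in turn kept the class 8 times for Adck5 and 11 times for Stk38l and Grip1os1. It did so 13 times for Pnpla5, Dntt and Slc25a51, 15 for Elovl5 and 16 for Osgin1.

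**Figure D2:**
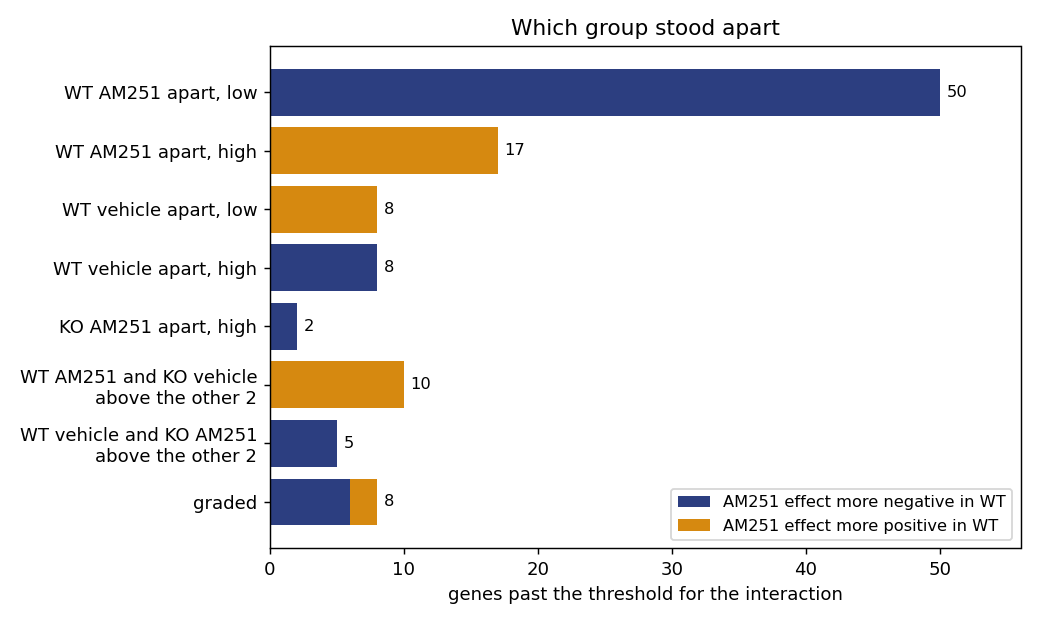
Number of genes with a called interaction (horizontal axis) by the group that stood apart (vertical axis), with the 71 genes more negative in WT livers in blue and the 37 more positive in orange. WT AM251 low is the longest bar, with 50 genes, followed by WT AM251 high with 17.

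The genes in which WT AM251 livers were low held much of cholesterol synthesis. Of 7 measured genes of the mevalonate pathway, which makes the isoprenoid precursors, 4 had a more negative interaction, with a median over the list of -1.15, and of 10 genes of the later sterol steps 5 did, with a median of -1.19. The median interaction of all 19147 genes was 0.02. Of all genes 0.564% had a called interaction and 0.371% a more negative one, and these shares apply to every list count below. AM251 lowered 6 of the 7 and 10 of the 10 in WT livers, against 1.02% of all genes. In KO livers it changed 0 of either list, against 0.0104% of all genes, a share at which nearly every list would hold 0. The list medians in KO livers were -0.11 and -0.04. Fdps, which makes farnesyl diphosphate, had log2 intensities of 9.14, 9.35, 9.68, 9.74 and 8.91 in WT AM251 livers and 10.88, 11.40, 11.98, 12.16 and 11.79 in WT vehicle livers. In KO livers it had 10.81, 12.27, 11.97, 11.61 and 11.83 with AM251 and 11.34, 11.65, 11.93 and 11.76 with vehicle. All 5 WT AM251 arrays lay below all 14 others, which overlapped. The interaction of Fdps was -2.31 ± 0.31 (SE), adjusted p = 5.25e-05, made of an AM251 effect of -2.28 ± 0.22 in WT and 0.03 ± 0.23 in KO livers.

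The other called genes of these steps had the same arrangement, with WT AM251 low and separate. They were Hmgcs1, the synthase of the pathway's entry (-1.15 ± 0.21, adjusted p = 0.00253), Pmvk, phosphomevalonate kinase (-1.86 ± 0.32), and Mvd, which forms the first isoprenoid (-2.04 ± 0.47). In the sterol steps they were Nsdhl (-1.86 ± 0.30), Dhcr7 (-1.56 ± 0.27), Lss, which closes the sterol ring (-1.38 ± 0.30), Sc5d (-1.12 ± 0.18) and Hsd17b7 (-0.91 ± 0.20). Some calls depended on single arrays. In 19 fits that each left out 1 array, Mvd passed in 11 of the 19 fits (highest adjusted p = 0.0695, without KO AM251 array 46), Lss passed in 16 of the 19 fits (highest adjusted p = 0.0555, without KO AM251 array 46) and Hsd17b7 passed in 14 of the 19 fits (highest adjusted p = 0.0634, without KO vehicle array 44). Idi1, Cyp51, Sqle and Msmo1 fell in WT livers but had interactions with adjusted p of 0.102, 0.0758, 0.0942 and 0.0928. Ggps1, which leads to other isoprenoids, was the 1 measured member of both lists with a positive value, 0.26 ± 0.16 (adjusted p = 0.8).

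Insig1, which holds SREBPs back and is itself an SREBP target, was arranged in the same way. Its log2 intensities were 11.16, 10.80, 10.64, 10.51 and 10.21 in WT AM251 livers and 12.32, 12.16, 12.69, 12.33 and 12.12 in WT vehicle livers. They were 12.09, 12.50, 12.36, 11.96 and 12.26 in KO AM251 livers and 12.26, 12.39, 12.10 and 12.02 in KO vehicle livers. The highest WT AM251 array lay below the lowest of the other 14. The interaction was -1.71 ± 0.22, adjusted p = 1.51e-05. Of the 9 genes of SREBP regulation 2 were called, Insig1 and Rdh11, a retinol dehydrogenase (-1.98 ± 0.33), while Srebf2, which encodes SREBP-2, had -0.002 ± 0.18 and Insig2, the second INSIG gene, -0.56 ± 0.30, adjusted p = 0.999 and 0.717.

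The promoter windows of 3 of the genes with low WT AM251 livers are shown because SREBPs are known to act there together with the CCAAT-binding factor NF-Y. They run from 250 bases before to 50 after the start in RefSeq (GRCm38.p6) and are printed 5′ to 3′ on the gene's strand. Hmgcs1 lies at chr13:119690101-119690400 on the plus strand, Insig1 at chr5:28071162-28071461 on the plus strand and Fasn at chr11:120824498-120824797 on the minus strand. Of 5 motifs searched on both strands, capitals mark 3: the SREBP site TCACNCCAC, the E-box CACGTG and the CCAAT box.
Hmgcs1: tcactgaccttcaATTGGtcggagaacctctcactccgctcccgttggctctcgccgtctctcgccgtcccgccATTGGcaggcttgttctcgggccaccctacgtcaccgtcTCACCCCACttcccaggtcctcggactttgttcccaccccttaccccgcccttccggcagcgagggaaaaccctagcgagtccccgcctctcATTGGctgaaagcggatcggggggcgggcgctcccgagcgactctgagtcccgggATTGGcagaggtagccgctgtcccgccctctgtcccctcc
Insig1: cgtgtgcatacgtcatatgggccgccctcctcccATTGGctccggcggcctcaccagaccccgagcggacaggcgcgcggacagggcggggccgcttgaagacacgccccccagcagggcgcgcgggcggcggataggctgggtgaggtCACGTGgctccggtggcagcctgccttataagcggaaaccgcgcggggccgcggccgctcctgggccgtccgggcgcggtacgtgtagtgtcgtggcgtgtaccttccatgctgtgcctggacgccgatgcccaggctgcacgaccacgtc
Fasn: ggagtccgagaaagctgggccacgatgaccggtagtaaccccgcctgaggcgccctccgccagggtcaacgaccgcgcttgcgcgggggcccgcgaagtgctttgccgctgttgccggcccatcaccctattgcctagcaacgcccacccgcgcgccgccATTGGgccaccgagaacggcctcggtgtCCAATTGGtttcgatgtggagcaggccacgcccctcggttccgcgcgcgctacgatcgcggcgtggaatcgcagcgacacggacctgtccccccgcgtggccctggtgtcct
The Hmgcs1 window held 1 SREBP site and 4 CCAAT boxes, the Insig1 window 1 E-box and 1 CCAAT box, and the Fasn window 3 CCAAT boxes, 2 of which overlap. In the shares that follow, a gene with several windows counted if any of them matched, so such genes had more chances to match. A CCAAT box was found in 15 of the 15 mevalonate and sterol genes with a window, in 67.8% of the 59 genes with a more negative interaction, in 56.7% of the 30 with a more positive one and in 41.7% of all 15145 genes with a window. The SREBP site was found in 1 of the 15 mevalonate and sterol genes (6.67%), 3 of the 59 (5.08%), 1 of the 30 (3.33%) and 1.41% of all. The 3 were Hmgcs1, Camk1d and Gstm6, and Camk1d and Gstm6 also had windows without it. The E-box was found in 3 of the 15 mevalonate and sterol genes, 16.9% of the 59, 6.67% of the 30 and 9.52% of all. The GC box GGGCGG, also searched and not capitalised, was found in 86.7% of the 15, 61.0% of the 59, 83.3% of the 30 and 51.7% of all. A direct repeat of nuclear receptor half-sites 1 base apart was found in 0 of these sets and in 0.0528% of all. A match is a description of these letters and not a measured binding site.

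Fatty acid synthesis genes were low in WT AM251 livers as well. Of 10 measured genes 8 had a called interaction more negative in WT livers, against 0.371% of all genes. The median interaction of the list was -1.88. Thrsp and Me1, among the 8, are described further on. The AM251 effects had a median of -1.63 in WT and 0.24 in KO livers. Fasn, fatty acid synthase, had the most negative interaction of all genes called. Its log2 intensities were 6.08, 6.42, 6.01, 6.56 and 6.16 in WT AM251 livers and 8.01, 10.08, 10.52, 10.03 and 9.17 in WT vehicle livers. In KO livers they were 9.11, 9.52, 8.74, 9.12 and 9.0 with AM251 and 7.67, 8.61, 7.53 and 8.54 with vehicle. The WT AM251 arrays lay below all others, the 2 groups of KO arrays did not overlap each other, and WT vehicle array 1 was well below its group. Its interaction was -4.33 ± 0.50, adjusted p = 3.63e-06, and was -4.71 without that array. Without it the class of Fasn also changed, from WT AM251 low to graded. AM251 lowered Fasn in WT livers by 3.32 ± 0.34, while its effect in KO livers was 1.01 ± 0.36, adjusted p = 0.999. Under vehicle Fasn was lower in KO than in WT livers, by 1.47 (adjusted p = 0.033).

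The enzymes that supply and use the acetyl units went the same way. Acly, which cleaves citrate into acetyl-CoA, had an interaction of -2.67 ± 0.44, and Acss2, which makes acetyl-CoA from acetate, -2.08 ± 0.45. Both had WT AM251 livers low and separate. Acss2 had 9.41, 9.51, 9.44, 9.40 and 9.45 in WT AM251 livers, a range much tighter than the 10.42, 11.28, 12.28, 11.81 and 11.11 of WT vehicle livers. In KO livers it had 10.45, 12.08, 11.89, 11.72 and 11.44 with AM251 and 11.23, 11.30, 11.59 and 11.37 with vehicle. WT AM251 was also low and separate for Acacb (-1.90 ± 0.44), an acetyl-CoA carboxylase, and Mid1ip1 (-1.61 ± 0.25), which promotes the assembly of that enzyme. Acacb passed in 8 of the 19 fits (highest adjusted p = 0.0872, without KO vehicle array 41). Acaca, the other carboxylase, was graded at -1.60 ± 0.29, with group means of 8.53 ± 0.11 in WT AM251, 10.0 ± 0.63 in WT vehicle, 9.34 ± 0.49 in KO AM251 and 9.22 ± 0.23 in KO vehicle livers (SD). The second, dimmer probe set of Acaca had an interaction of -0.20. The 2 members without a call were Slc25a1, the citrate carrier (-0.51 ± 0.34, adjusted p = 0.827), and Mlxipl, which encodes the carbohydrate-response factor ChREBP (0.20 ± 0.19, adjusted p = 0.916).

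**Figure D3:**
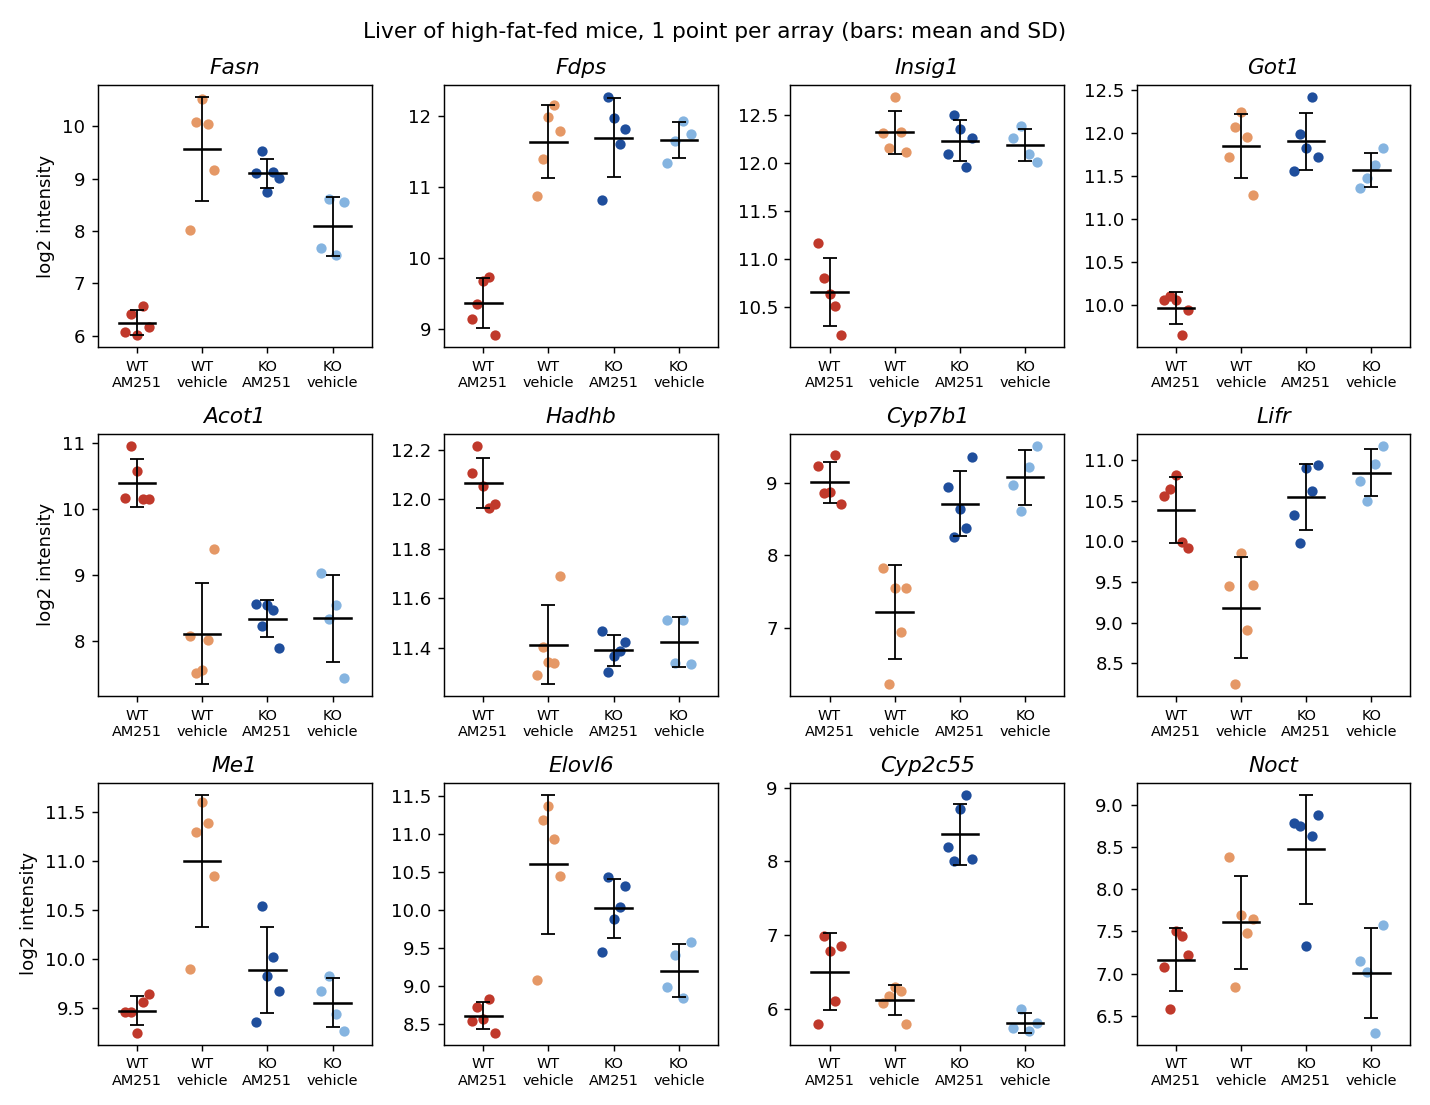
Log2 intensity (vertical axis) of 12 genes in each array, with the 4 groups along the horizontal axis in the order WT AM251, WT vehicle, KO AM251 and KO vehicle; bars give mean and SD. WT AM251 arrays are the low group for Fasn, Fdps, Insig1 and Got1 and the high group for Acot1 and Hadhb. WT vehicle arrays are low for Cyp7b1 and Lifr and high for Me1, Elovl6 is 2 against 2, and KO AM251 arrays are high for Cyp2c55 and Noct.

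Desaturases and elongases followed in part, with 4 of 9 measured genes called, all more negative, against 0.371% of all genes. Scd1, the main stearoyl-CoA desaturase of liver, had an interaction of -1.81 ± 0.36, adjusted p = 0.00662, and its second, dimmer probe set -3.70. Its call was lost with only the 4 high-fat groups in the fit (adjusted p = 0.0618). Fads1, the delta-5 desaturase, had -1.34 ± 0.19, and Elovl5 -1.02 ± 0.23. WT AM251 was the low group for all 3, and separate for Fads1 only. Elovl5 passed in 13 of the 19 fits (highest adjusted p = 0.06, without KO vehicle array 44). The other gene called, Elovl6, had another arrangement, given further on. One KO AM251 array, number 45, was at 12.46 for Scd1, inside the WT AM251 range of 11.33 to 12.99. That array was also the lowest of its group for Fdps, Mvd, Pmvk, Lss, Acss2, Rdh11, Acly and Elovl6. It was not the lowest for Fasn, Insig1, Thrsp or Mid1ip1. Without it the interaction of Scd1 was -2.15.

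Some genes of amino acid metabolism were also low in WT AM251 livers. Got1, the cytosolic aspartate aminotransferase, had log2 intensities of 10.06, 10.11, 10.06, 9.65 and 9.95 in WT AM251 livers and 11.72, 12.07, 12.25, 11.96 and 11.28 in WT vehicle livers. In KO livers it had 11.56, 11.99, 11.83, 12.42 and 11.72 with AM251 and 11.36, 11.49, 11.63 and 11.83 with vehicle. The highest WT AM251 array lay more than 1 log2 unit below the lowest other array. The interaction was -2.21 ± 0.32, adjusted p = 9.33e-05. Ass1, the urea cycle enzyme argininosuccinate synthase, moved less: it had 12.96, 12.92, 13.07, 12.87 and 13.08 in WT AM251 livers and 13.82, 13.89, 13.98, 13.81 and 13.67 in WT vehicle livers. It had 13.79, 13.88, 13.76, 14.02 and 13.94 in KO AM251 livers and 13.85, 13.82, 13.78 and 13.85 in KO vehicle livers, again with no overlap between WT AM251 and the rest. Its interaction was -0.91 ± 0.13, adjusted p = 9.9e-05.

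Of 17 genes of the urea cycle and amino acid breakdown WT AM251 was the low group in 9, against 5.54% of all genes. The interaction was called for 4, all more negative, against 0.371% of all genes. They were Ass1, Asl, the next urea cycle enzyme (-0.70 ± 0.15), Hgd, of tyrosine breakdown (-0.65 ± 0.14), and Arg1, arginase (-0.43 ± 0.11, adjusted p = 0.0431). Arg1 passed in 4 of the 19 fits (highest adjusted p = 0.114, without KO vehicle array 42). Of 12 gluconeogenesis genes 2 were called, Got1 and Tat, tyrosine aminotransferase (-1.54 ± 0.26, adjusted p = 0.000973). G6pc, the last enzyme of glucose release, had -1.24 ± 0.35 (adjusted p = 0.124) and Fbp1 -0.33 ± 0.10 (adjusted p = 0.14). Among 9 genes of glycolysis and ChREBP response 2 were called, Khk, the fructose kinase (-0.90 ± 0.17, graded), and Gckr, the glucokinase regulator (-0.49 ± 0.11). Gckr passed in 10 of the 19 fits (highest adjusted p = 0.083, without KO vehicle array 42).

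Other genes with low WT AM251 livers had no common list. Fst encodes follistatin, a secreted binder of activins. It had 3.99, 4.58, 3.91, 6.07 and 5.37 in WT AM251 livers and 6.33, 8.05, 8.47, 7.47 and 6.72 in WT vehicle livers. It had 5.72, 6.73, 7.17, 7.15 and 7.59 in KO AM251 livers and 5.87, 6.91, 6.0 and 6.96 in KO vehicle livers, so 1 WT AM251 array reached the KO range. Its interaction was -3.06 ± 0.58, adjusted p = 0.00373. Gstm3, a mu-class glutathione transferase, had 7.27, 7.59, 6.97, 7.47 and 7.60 in WT AM251 livers and 8.82, 10.91, 9.02, 9.66 and 8.48 in WT vehicle livers. It had 8.47, 9.14, 9.18, 9.43 and 8.78 in KO AM251 livers and 8.33, 8.37, 8.64 and 9.0 in KO vehicle livers, with WT AM251 separate, and an interaction of -2.41 ± 0.46. Of 13 glutathione transferases Gstm3 and Gstm6 (-1.01 ± 0.25) were called, and 12 of the 13 had a value below 0. Genes of a list share the same arrays, so counts of signs, here and below, are not counts of separate observations. Gstm6 passed in 5 of the 19 fits (highest adjusted p = 0.129, without KO vehicle array 41). Mu-class members are close copies of each other, and probes may not tell all of them apart. Cyp17a1, a steroid hydroxylase, had an interaction of -1.77 ± 0.39, with 1 WT AM251 array at 8.23 and the other 4 between 7.03 and 7.18. It passed in 16 of the 19 fits (highest adjusted p = 0.0638, without KO vehicle array 44).

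The remaining genes of this arrangement are given by name, chosen because the class was stated for every called gene. WT AM251 livers were low for Camk1d, Acsl3, Dntt, Pstpip2, Acmsd, 1810008I18Rik, Aldh1b1, Zfand4, Frmd4b, Gm11437, Cyb5b, Ropn1l, Mblac2, Fmn1, Tfpi2, Kynu, Qdpr, Tlcd1, Aldh1l1 and Haus7. Their interactions ran from -1.77 for Camk1d to -0.53 for Haus7. Acsl3 activates long-chain fatty acids, and Kynu and Acmsd belong to the breakdown of tryptophan. The group was separate in all of these except Dntt, Aldh1b1 and Tfpi2. Of these 20 genes 9 passed in all 19 fits without 1 array, while Fmn1 and Tlcd1 passed in 7 and Haus7 in 4.

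Genes with high WT AM251 livers held parts of fatty acid oxidation. Of 13 genes of mitochondrial beta-oxidation and ketogenesis 3 had a more positive interaction, with a list median of 0.42, and 13 of 13 were above 0. Of all genes 0.193% had a called, more positive interaction. WT AM251 was the high group in 12 of the 13, against 7.05% of all genes. AM251 raised 6 of them in WT livers, against 0.888% of all genes. It changed 0 in KO livers, against 0.0104% of all genes, a share at which nearly every list would hold 0. Hadhb, the beta subunit of the trifunctional protein, had log2 intensities of 12.10, 12.22, 12.06, 11.97 and 11.98 in WT AM251 livers and 11.29, 11.40, 11.34, 11.34 and 11.69 in WT vehicle livers. It had 11.47, 11.30, 11.37, 11.39 and 11.42 in KO AM251 livers and 11.51, 11.34, 11.51 and 11.33 in KO vehicle livers. The WT AM251 arrays lay above all others, with 1 WT vehicle array, number 5, above the rest of its group. The interaction was 0.69 ± 0.13, adjusted p = 0.00473. Hadha, the alpha subunit, had 0.53 ± 0.13 and Cpt2, which hands acyl groups to mitochondrial oxidation, 0.63 ± 0.16. These 2 were close to the threshold (adjusted p = 0.0399 and 0.0442) and rested on single arrays: Hadha passed in 3 of the 19 fits (highest adjusted p = 0.108, without WT vehicle array 3), Cpt2 passed in 4 of the 19 fits (highest adjusted p = 0.145, without KO vehicle array 42), and the list count was 1 in 14 of the fits. The other 4 probe sets of Hadha had interactions of 0.66, 0.60, 0.64 and -0.06. Hadha and Hadhb are neighbours on chromosome 5 that run in opposite directions, and their 2 windows share 228 bases.

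Acot1, a cytosolic acyl-CoA thioesterase and a known PPARα target, had the most positive interaction of all genes called. It had 10.16, 10.96, 10.58, 10.15 and 10.14 in WT AM251 livers and 8.07, 7.51, 7.56, 8.0 and 9.39 in WT vehicle livers. It had 8.56, 8.22, 8.55, 8.46 and 7.89 in KO AM251 livers and 9.03, 8.33, 8.55 and 7.44 in KO vehicle livers. The lowest WT AM251 array was above the highest of the other groups, WT vehicle array 5. The interaction was 2.29 ± 0.48, adjusted p = 0.012. Acot1 has close paralogs, so its probes may not be specific to it. Of 19 PPARα targets 2 were called, Acot1 and Slc22a5, the carnitine transporter (1.10 ± 0.26), with a list median of 0.58 and 17 of 19 above 0. Slc22a5 passed in 8 of the 19 fits (highest adjusted p = 0.105, without KO vehicle array 42). Creb3l3, a liver transcription factor, had 0.67 ± 0.17 (adjusted p = 0.0513), and Ppara itself 0.46 ± 0.25 (adjusted p = 0.717). Of 10 peroxisomal oxidation genes 1 was called, Eci2, an enoyl-CoA isomerase (0.93 ± 0.19).

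Derl3, of the disposal of misfolded proteins from the endoplasmic reticulum, had an interaction of 1.65 ± 0.37 with WT AM251 high and separate. It was the 1 gene called of 13 in the unfolded protein response list, whose median was 0.47 with 13 of 13 above 0. The other 12 were not called, the median of all genes was 0.02, and the list was not tested as a set. Derl3 passed in 11 of the 19 fits (highest adjusted p = 0.0673, without KO vehicle array 41). Abhd6, which hydrolyses the endocannabinoid 2-arachidonoylglycerol, had 7.84, 7.85, 8.13, 8.36 and 7.95 in WT AM251 livers and 7.16, 6.86, 6.97, 6.87 and 7.42 in WT vehicle livers. It had 7.15, 6.82, 6.74, 6.66 and 6.67 in KO AM251 livers and 7.02, 6.63, 6.97 and 6.50 in KO vehicle livers, with WT AM251 above all others. Its interaction was 0.94 ± 0.22 (adjusted p = 0.0268), the 1 call among 14 genes of the endocannabinoid system. It passed in 8 of the 19 fits (highest adjusted p = 0.104, without KO vehicle array 42). Mgll, the main enzyme of the same step, had 0.52 ± 0.27 (adjusted p = 0.709).

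The nicotinic receptor subunit Chrna2 (1.36 ± 0.29), the diacylglycerol kinase Dgkh (1.27 ± 0.21) and the phospholipase Pla2g12a (1.23 ± 0.22) also had high WT AM251 livers. The dimmer probe sets of Dgkh had interactions of 0.75 and 0.085. Dgkh and Pla2g12a were separate, while 1 WT vehicle array, number 5, reached the WT AM251 range of Chrna2 at 7.29. The other genes with this arrangement were Amacr, Dmac2l, Mmd, Slc27a2, Lgals4 and Qpct, with interactions of 0.50 for Amacr to 0.96 for Qpct, separate for Amacr, Mmd and Slc27a2. Slc27a2 passed in all 19 fits, Lgals4 in 11, Amacr and Dmac2l in 7, Mmd in 6 and Qpct in 5. The second, dimmer probe set of Lgals4 had an interaction of -0.07.

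**Figure D4:**
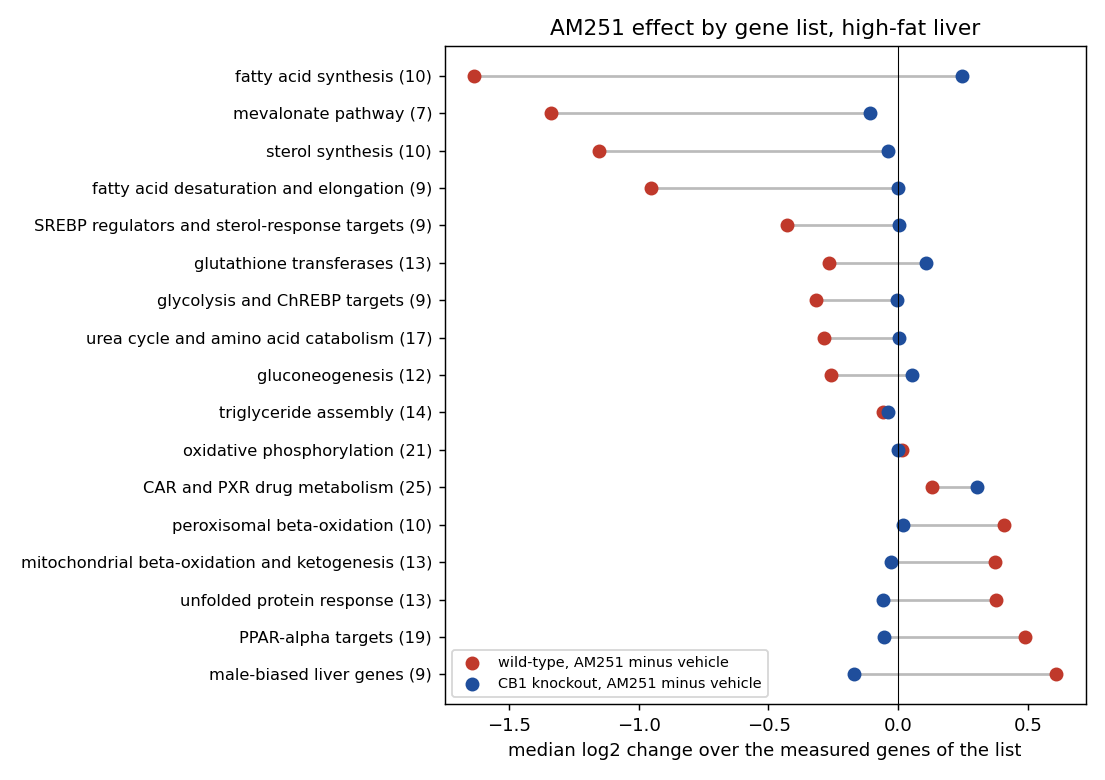
Median AM251 effect (log2, horizontal axis) of 17 gene lists (vertical axis, with the number of measured genes) in WT livers (red) and KO livers (blue). The WT medians run from -1.63 for fatty acid synthesis to 0.61 for male-biased liver genes, while the KO medians lie between -0.17 and 0.30.

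A second arrangement was that WT vehicle livers stood apart, with WT AM251 livers near both KO groups. Cyp7b1, an oxysterol 7α-hydroxylase that male liver expresses more than female liver, had log2 intensities of 9.22, 8.85, 8.86, 9.38 and 8.70 in WT AM251 livers and 7.82, 6.22, 7.55, 6.93 and 7.55 in WT vehicle livers. It had 8.94, 8.25, 8.64, 8.37 and 9.35 in KO AM251 livers and 8.97, 8.61, 9.21 and 9.51 in KO vehicle livers. The WT vehicle arrays lay below all others, which overlapped. The interaction was 2.15 ± 0.40, adjusted p = 0.00372, and under vehicle KO livers exceeded WT livers by 1.86 ± 0.29 (adjusted p = 0.000464).

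Lifr, the receptor subunit for leukaemia inhibitory factor, had 10.56, 10.64, 10.82, 9.99 and 9.91 in WT AM251 livers and 9.45, 8.24, 9.86, 8.91 and 9.46 in WT vehicle livers. It had 10.32, 9.98, 10.90, 10.62 and 10.94 in KO AM251 livers and 10.75, 10.50, 10.96 and 11.18 in KO vehicle livers, with WT vehicle below all others. Its interaction was 1.5 ± 0.35 (adjusted p = 0.0281), with 1.26 without WT vehicle array 2, the lowest of the group. It passed in 11 of the 19 fits (highest adjusted p = 0.0906, without KO vehicle array 44). Fgf1, a fibroblast growth factor, was low and separate in WT vehicle livers too (0.91 ± 0.15). So was Cyp4f13 (0.59 ± 0.13), a cytochrome P450. WT vehicle was the low group, with overlap, for Nlrp12 (1.62 ± 0.36), an inhibitory immune sensor, and for Fbxo21, Fbxo31 and C8a. Nlrp12 passed in 13 of the 19 fits (highest adjusted p = 0.104, without KO vehicle array 42), and Cyp4f13 passed in 18 of the 19 fits (highest adjusted p = 0.0522, without WT vehicle array 4). Fbxo21 passed in 12, C8a in 7 and Fbxo31 in 6.

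Male-biased liver genes had this arrangement beyond Cyp7b1: WT vehicle was the low group in 5 of 9 (against 8.38% of all genes), separate in 1 of these, and 6 of 9 were higher in KO than in WT livers under vehicle (against 1.19% of all genes called in either direction). The interaction was called for Cyp7b1 alone. Hsd3b5, a steroid reductase of male liver, had 11.89, 12.07, 12.51, 10.57 and 10.67 in WT AM251 livers and 9.07, 4.42, 11.24, 8.45 and 9.82 in WT vehicle livers. It had 11.64, 11.90, 12.63, 12.14 and 12.43 in KO AM251 livers and 12.17, 11.97, 12.76 and 12.80 in KO vehicle livers. The WT vehicle arrays were scattered over several log2 units, and the interaction was 3.22 ± 0.92 with an adjusted p of 0.125. Serpina1e, of the same list, had 0.62 ± 0.17 (adjusted p = 0.0778). WT vehicle array 2 was the lowest of all 19 arrays for Hsd3b5, Cyp7b1, Serpina1e (13.32) and Lifr, and had the lowest mean correlation with the other arrays (0.9893). Its part in the counts of this list was not tested.

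The 8 genes with high WT vehicle livers were Me1, Tubb2a, Pnpla3, Pnpla5, Gprc5b, Cs, Stk38l and Aldh1a7, and none was separate. Me1 and Cs passed in all 19 fits, Stk38l in 17, Pnpla5 in 16, Gprc5b in 13, Aldh1a7 in 7 and Tubb2a in 5. Me1, the cytosolic malic enzyme that makes NADPH for fatty acid synthesis, had 9.45, 9.46, 9.24, 9.56 and 9.64 in WT AM251 livers and 9.90, 11.29, 11.60, 11.38 and 10.84 in WT vehicle livers. It had 9.36, 10.54, 9.82, 10.02 and 9.68 in KO AM251 livers and 9.67, 9.83, 9.44 and 9.26 in KO vehicle livers. WT vehicle array 1 fell among the other groups, while the other 4 lay above all of them. The interaction was -1.86 ± 0.37 (adjusted p = 0.00612), and under vehicle Me1 was lower in KO than in WT livers, by 1.45 (adjusted p = 0.0021). Pnpla3, a lipid droplet enzyme, had -1.53 ± 0.35 (adjusted p = 0.0263), and it passed in 13 of the 19 fits (highest adjusted p = 0.0956, without KO vehicle array 42). It was the 1 call among 14 genes of triglyceride assembly, where Gpam had -1.55 ± 0.43 (adjusted p = 0.0983). WT vehicle array 1 was the lowest of its group for Fasn, Acly, Elovl6, Thrsp, Me1, Pnpla3 and Scd1 alike. Me1, Tubb2a, Fgf1 and the other genes of this arrangement beyond the naming rule were named after their values were seen.

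In another arrangement no single group stood apart and the estimated AM251 effects of the 2 genotypes had opposite signs. AM251 changed only Cyp2c55 and Cyp2c29 in KO livers, so the KO effect passed for no gene of this arrangement, here or in the next paragraph. Elovl6, which elongates palmitate, had 8.54, 8.73, 8.57, 8.83 and 8.38 in WT AM251 livers and 9.08, 11.19, 11.36, 10.93 and 10.44 in WT vehicle livers. It had 9.44, 10.43, 9.88, 10.04 and 10.32 in KO AM251 livers and 8.98, 9.40, 8.84 and 9.58 in KO vehicle livers. WT vehicle and KO AM251 were the high pair, with WT vehicle array 1 among the low groups. The interaction was -2.81 ± 0.41, adjusted p = 9.87e-05. AM251 changed Elovl6 in WT livers by -1.99 ± 0.28 (adjusted p = 1.47e-05), and the KO value of 0.82 ± 0.30 did not pass (adjusted p = 0.999). Thrsp, a lipogenic regulator, had the same pairing (-2.62 ± 0.49, adjusted p = 0.00313), as did Lacc1 and 9030616G12Rik, and Celsr1, which passed in 8 of the 19 fits. The second, dimmer probe set of Celsr1 had an interaction of -0.10.

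Osgin1, an oxidative stress-induced growth inhibitor, had the opposite pairing. It had 11.28, 10.62, 10.60, 10.95 and 10.34 in WT AM251 livers and 9.92, 9.71, 9.62, 8.88 and 9.93 in WT vehicle livers. It had 9.49, 8.95, 9.52, 9.20 and 9.61 in KO AM251 livers and 10.15, 9.72, 10.75 and 10.26 in KO vehicle livers. WT AM251 and KO vehicle were high, and the interaction was 2.01 ± 0.38 (adjusted p = 0.00417). The AM251 effect was 1.15 ± 0.26 in WT livers (adjusted p = 0.00945), and the KO value of -0.86 ± 0.28 did not pass (adjusted p = 0.999). E2f8, a repressor of the cell cycle, had 2.04 ± 0.45 on its brighter probe set and 0.15 on the other, and passed in 18 of the 19 fits (highest adjusted p = 0.086, without KO vehicle array 42). Nrp1, a co-receptor for vascular growth factor (1.12 ± 0.26), the carboxylesterase Ces4a (1.26 ± 0.30), 1600014C10Rik, Tfap4, Gabarapl1, Ppm1k and Igfals shared the pairing. Ces4a passed in 9 of the 19 fits (highest adjusted p = 0.0938, without KO vehicle array 42), and Nrp1 passed in 10 of the 19 fits (highest adjusted p = 0.0928, without KO vehicle array 42). Gabarapl1 passed in 18, 1600014C10Rik, Ppm1k and Igfals in 10 and Tfap4 in 7. Nrp1 is also made by endothelial cells, whose summed markers were at 3247 to 3620 in WT AM251 livers and highest, at 3805 to 4205, in KO vehicle livers, and their part in its value was not tested. B930025P03Rik did so with KO vehicle array 44 at 5.44 and the other 3 arrays of that group at 4.09 to 4.16, and its class held in 14 of the 19 fits. Its interaction was 1.47 ± 0.30, and 1.14 without that array.

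The graded genes were Acaca, Khk, D130043K22Rik, Dusp14, Slc25a51, Grip1os1, Chp1 and Adck5, with the first 6 negative. Acaca, Khk and D130043K22Rik passed in all 19 fits, Dusp14 in 16, Grip1os1 in 11, Slc25a51 and Adck5 in 7 and Chp1 in 6.

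Of the called genes, only Cyp2c55 and Noct had KO AM251 livers apart. Cyp2c55, a cytochrome P450 of the drug-metabolism response driven by the nuclear receptors CAR and PXR, had 5.79, 6.99, 6.78, 6.10 and 6.85 in WT AM251 livers and 6.08, 6.18, 6.30, 6.24 and 5.78 in WT vehicle livers. It had 8.20, 8.0, 8.71, 8.91 and 8.04 in KO AM251 livers and 5.73, 5.99, 5.69 and 5.80 in KO vehicle livers. The KO AM251 arrays lay above all others, and 3 of the 5 WT AM251 arrays lay above all WT vehicle arrays. AM251 raised Cyp2c55 in KO livers by 2.57 ± 0.33 (adjusted p = 3.09e-05), while the WT effect was 0.39 ± 0.31 (adjusted p = 0.71). The interaction was -2.18 ± 0.46, adjusted p = 0.0124; of the 2 effects, that in the knockouts was the larger.

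Noct, a phosphatase of NADPH with a daily rhythm in liver, had 7.07, 6.58, 7.51, 7.45 and 7.22 in WT AM251 livers and 8.38, 6.84, 7.70, 7.48 and 7.64 in WT vehicle livers. It had 8.78, 8.75, 7.33, 8.63 and 8.88 in KO AM251 livers and 7.15, 7.01, 6.30 and 7.58 in KO vehicle livers. KO AM251 array 47 lay among the other groups. The interaction was -1.91 ± 0.44 (adjusted p = 0.0276), and it passed in 10 of the 19 fits (highest adjusted p = 0.12, without KO vehicle array 42). Neither genotype's own AM251 effect passed (adjusted p = 0.636 in WT and 0.35 in KO). The 17 clock genes listed had 0 called interactions, against 0.564% of all genes.

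Of the 25 genes of the drug-metabolism list Cyp2c55 was the 1 with a called interaction, and the list's median interaction was 0.01. Cyp2c29 averaged 13.92 ± 0.25 in WT AM251, 12.63 ± 0.27 in WT vehicle, 13.98 ± 0.10 in KO AM251 and 12.80 ± 0.23 in KO vehicle livers (SD). AM251 raised it in both genotypes, by 1.28 ± 0.12 in WT (adjusted p = 5.44e-09) and 1.18 ± 0.13 in KO livers (adjusted p = 9.4e-07), with an interaction of 0.10 ± 0.18 (adjusted p = 0.971). Cyp2b10, the classic CAR target, had effects of 2.65 ± 0.56 (adjusted p = 0.00425) in WT and 2.25 ± 0.60 (adjusted p = 0.999) in KO livers, and its interaction of 0.39 ± 0.82 has a standard error too wide to show that they were alike. Both genes were named after their values were seen.

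The same interaction was computed in the 20 livers of chow-fed mice, in 4 groups of 5 that received the same 2 doses on a diet with 13% of its energy as fat. Limma called 0 of 19147 genes there (0%), while 1437 had p under 0.05 before adjustment, against 1428 in the high-fat livers. A call on one diet and none on the other does not show a difference, so the difference between the 2 interactions was tested. It passed for 4 genes (0.0209%), each more negative in the high-fat livers, and 1214 had p under 0.05 before adjustment. Fasn had an interaction of -4.33 ± 0.50 on the high-fat diet and -0.24 ± 0.48 on chow, a difference of -4.09 ± 0.70 (adjusted p = 0.00879). Fdps had -2.31 ± 0.31 and 0.19 ± 0.31, a difference of -2.5 ± 0.44 (adjusted p = 0.00974). Insig1 had -1.71 ± 0.22 and 0.12 ± 0.21, a difference of -1.82 ± 0.30 (adjusted p = 0.00879). Pstpip2, an actin-associated adaptor known from macrophages, had -1.50 ± 0.21 and 0.05 ± 0.20, a difference of -1.55 ± 0.29 (adjusted p = 0.0179).

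For the other genes named the diets could not be told apart at this threshold. Acot1 had -0.003 ± 0.46 on chow, with a difference of 2.30 ± 0.67 (adjusted p = 0.398), and Elovl6 a difference of -2.22 ± 0.57 (adjusted p = 0.273). Cyp2c55 kept its sign on chow at -1.25 ± 0.44, with a difference of -0.93 ± 0.64 (adjusted p = 0.888). Gckr had nearly equal values on both diets, -0.49 ± 0.11 on the high-fat diet and -0.42 ± 0.11 on chow.

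**Figure D5:**
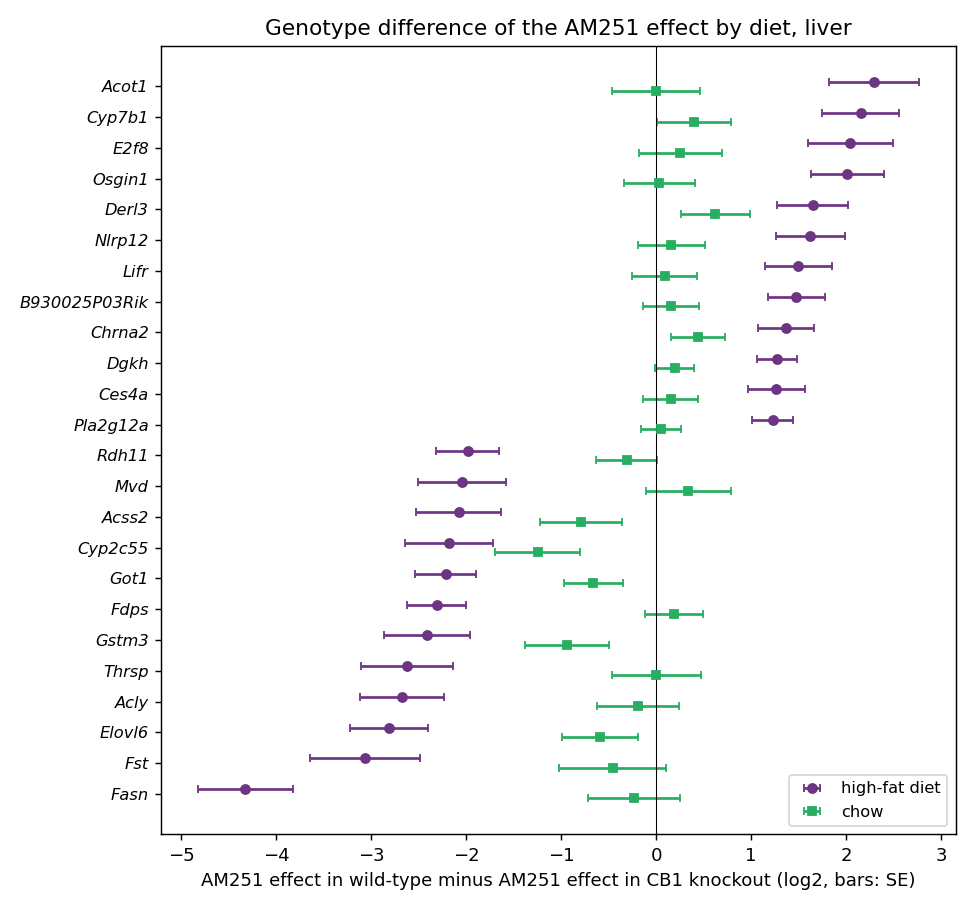
Interaction (AM251 effect in WT minus AM251 effect in KO livers, log2, horizontal axis, bars SE) of the 12 genes with the most positive and the 12 with the most negative called values on the high-fat diet (vertical axis). Circles are the high-fat diet and squares chow. Chow values lie nearer 0 than the high-fat values for all 24 genes, which were picked by their high-fat values.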

How the data were processed

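RNA of 39 livers was measured on 1-colour arrays, 1 array per mouse. Per the submitters' processing notes the authors summarised probe intensities with RMA, whose version is not given in the sources used here; the deposited table holds 1 normalized intensity per probe set and array, on a linear scale. RMA shrinks differences of dim and of very bright probe sets.

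Intensities were taken to log2. Of 38385 probe sets, 24478 had 1 gene symbol in the platform annotation, 65 had several and 13842 were not listed; those without a single symbol were not used here. Each of 19147 genes was read from its brightest probe set, by mean log2 over the 39 arrays. Limma 3.58.1 (lmFit, eBayes) in R 4.3.3 fitted 8 group means to all 39 arrays with 31 residual degrees of freedom and no covariate, so that the 20 chow livers helped estimate the spread. P-values were adjusted over all genes by Benjamini and Hochberg's method, with a threshold of 0.05. The number of arrays limits the precision. The procedure was tested on simulated data: of 100 genes given a difference of 1, 89% were recovered, and of 100 given 2, 99%, with 13 false calls. The simulated noise was normal, independent between genes and equally wide in all 8 groups, and the difference was put in WT AM251 livers only. In the data the spread differed between groups, as for Acss2 (SD 0.04 in WT AM251 and 0.71 in WT vehicle livers). These shares need not hold there.

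The comparison, the gene lists and the markers were chosen with earlier results of these data known. Genes named with values were the 12 with the most positive and the 12 with the most negative called interaction, up to 4 members of each described list with the smallest p, and Cnr1, plus those said to be named after their values were seen. Further list members are given where a count turns on them. Leaving out each array, and the alternatives given at the end, were also run. No scan date or slide was given for use as a batch.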

Additional observations from a re-analysis of the deposited data

Results flagged for a closer look

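Single arrays far from the other arrays of their group were searched for by the gap to the nearest array as a share of the group's range, in all 108 called genes and the other genes taken by the naming rule, plus Cyp2c29 and Cyp2b10, which makes 173 genes and 692 groups. They were found in 43 groups (6.21%), and chance alone marks about 1 in 20. In WT AM251 livers they were Cyp17a1 (8.23), Herpud1 (12.50) and Mblac2 (6.79) in array 33, Chac1 (6.63), Ehhadh (12.88), Hadha (11.84) and Vldlr (6.26) in array 35, Creb3l3 (12.11) and Xbp1 (12.15) in array 37, Cox6c (7.81), Fbxo31 (8.11), Orm2 (9.03) and Qdpr (11.79) in array 38 and G6pc (10.02) and Idi1 (7.07) in array 39. In WT vehicle livers they were Cnr1 (5.51), Cox6c (7.82), Khk (12.08) and Scd1 (13.66) in array 1, Cdc20 (6.95) and Herpud1 (11.29) in array 2, Mblac2 (7.63) in array 3 and Hadhb (11.69) in array 5. In KO AM251 livers they were Cidea (4.67), Cyp2b9 (7.66), Gstm7 (9.78), Hgd (12.49), Qdpr (12.63) and Scd1 (12.46) in array 45, Orm1 (12.69) and Pnpla5 (5.07) in array 46, Cideb (11.43) and Noct (7.33) in array 47, Cdc20 (4.99) in array 48 and Amacr (11.45) and Ugt2b38 (6.93) in array 49. In KO vehicle livers they were Lss (9.52) and Orm3 (4.76) in array 40, Creb3l3 (11.96) in array 42 and B930025P03Rik (5.44), D130043K22Rik (5.82), Hsd17b7 (9.96) and Ifi27 (11.16) in array 44.

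The interaction is itself a tested difference between the genotypes in the AM251 effect. It passed for 52 genes among those taken by the naming rule. The negative values were Fasn (-4.33), Fst (-3.06), Elovl6 (-2.81), Acly (-2.67), Thrsp (-2.62), Gstm3 (-2.41), Fdps (-2.31), Got1 (-2.21), Cyp2c55 (-2.18), Acss2 (-2.08), Mvd (-2.04), Rdh11 (-1.98), Pmvk (-1.86), Nsdhl (-1.86), Scd1 (-1.81), Cyp17a1 (-1.77), Insig1 (-1.71), Mid1ip1 (-1.61), Acaca (-1.60), Dhcr7 (-1.56), Tat (-1.54), Pnpla3 (-1.53), Lss (-1.38), Fads1 (-1.34), Hmgcs1 (-1.15), Sc5d (-1.12), Elovl5 (-1.02), Gstm6 (-1.01), Ass1 (-0.91), Khk (-0.90), Asl (-0.70), Hgd (-0.65), Gckr (-0.49) and Arg1 (-0.43). The positive values were Acot1 (2.29), Cyp7b1 (2.15), E2f8 (2.04), Osgin1 (2.01), Derl3 (1.65), Nlrp12 (1.62), Lifr (1.5), B930025P03Rik (1.47), Chrna2 (1.36), Dgkh (1.27), Ces4a (1.26), Pla2g12a (1.23), Slc22a5 (1.10), Abhd6 (0.94), Eci2 (0.93), Hadhb (0.69), Cpt2 (0.63) and Hadha (0.53).

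The difference between the high-fat and the chow interaction passed for Fasn (-4.09), Fdps (-2.5), Insig1 (-1.82) and Pstpip2 (-1.55).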

How the results depend on the processing

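No paired analysis was possible because the 4 groups share no replicate numbers. Counts of calls moved more than directions. With only the 4 high-fat groups in the fit, limma called 163 interactions (90 of the 108 among them) and 569 genes for the AM251 effect in high-fat WT liver. With array weights it called 230 interactions (all 108 among them), 625 WT effects, 834 genotype differences under AM251 and 588 under vehicle, and 8 of the 10 sterol genes. Quantile normalization gave 130 interactions, 30 more positive and 100 more negative. Without single arrays the interactions numbered 66 (without KO AM251 46) to 136 (without WT vehicle 5), with 67 without KO vehicle 42 and 70 without WT vehicle 4. The WT effects numbered 233 (without WT vehicle 2) to 423, the KO effects 2 to 3, the genotype differences 291 to 459 under AM251 and 75 (without KO vehicle 44) to 255 under vehicle, with 80 without WT vehicle 2 and 96 without KO vehicle 42. The difference between diets passed for 3 to 8 genes. The called genes numbered 3 to 5 in the mevalonate list, 3 to 8 in the sterol list, 7 to 8 in the fatty acid synthesis list and 1 to 4 in the mitochondrial oxidation list, and 63 to 69 genes had WT AM251 apart. Of the called genes taken by the naming rule none changed sign; Cnr1, the other gene recomputed, did, between -0.12 and 0.05 without single arrays (0.0413, 0.0483, 0.005 and 0.003 where positive), and it was never called. Of the 108 genes 51 passed without any single array. With only the 4 groups, Arg1 (adjusted p = 0.0528), B930025P03Rik (0.0506), Cpt2 (0.063), Cyp17a1 (0.0527), Lifr (0.0518), Pnpla3 (0.119) and Scd1 (0.0618) missed the threshold. With the mean of all probe sets E2f8 (0.0507), Hadha (0.832) and Lifr (0.149) did, with quantile normalization Ces4a (0.0536), and with 16 added to the intensities Gstm6 (0.0644). The cause was not tested. Dim genes have low signal over background, so their changes may be understated, which was not measured here.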

Other observations

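Several gene groups held 0 called interactions, against 0.564% of all genes: 12 lipid droplet proteins (median -0.09), 14 genes of bile acid synthesis and transport (0.02), 18 acute phase genes (0.03), 16 of the amino acid response (-0.14), 15 interferon-stimulated genes (0.13), 21 of oxidative phosphorylation (0.02), 21 of the cell cycle (-0.22) and 17 of the circadian clock (-0.10). At that share most lists of this size would hold 0 calls, so these lists are not shown to lack an interaction. Of 12 female-biased liver genes Cyp17a1 was the 1 called (median -0.13). WT vehicle was the high group in 4 of the 12 (against 11% of all genes), separate in 0. Under vehicle 3 of the 12 were lower in KO than in WT livers (against 1.19% of all genes called in either direction). They were Cyp2b9 (-4.61, adjusted p = 0.00053), Hao2 (-1.30, adjusted p = 0.0196) and Cyp2b13 (-0.54, adjusted p = 0.037).

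Under vehicle 5 of the 12 lipid droplet genes were lower in KO than in WT livers (against 1.19% of all genes called in either direction). The summed intensity of 4 adipocyte markers was 160.2 to 233.9 in KO vehicle livers and 204.5 to 353.8 in WT vehicle livers, and its part in this was not tested. Cidea, a lipid droplet fusion protein, had log2 intensities of 4.67, 3.93, 4.07, 4.11 and 3.96 in KO AM251 livers and 5.42, 4.0, 4.60, 7.81 and 5.86 in WT AM251 livers. It had 4.27, 4.54, 4.48 and 3.89 in KO vehicle livers and 8.29, 8.95, 4.87, 7.64 and 7.91 in WT vehicle livers. The KO minus WT difference under vehicle was -3.24 ± 0.52 (adjusted p = 0.000491), and the interaction was -1.85 ± 0.71 (adjusted p = 0.426).

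Among the acute phase genes 3 had larger negative interactions that were not called: Saa2 (-3.14 ± 1.33, adjusted p = 0.53), Orm2 (-2.26 ± 1.07, adjusted p = 0.638) and Orm3 (-1.10 ± 0.50, adjusted p = 0.599). WT vehicle arrays 1 and 2 were the highest of their group for all 3. Saa2, a serum amyloid A, had 7.54, 7.38, 6.53, 9.86 and 7.12 in WT AM251 livers and 12.75, 10.14, 8.47, 8.55 and 8.45 in WT vehicle livers. It had 9.61, 7.07, 11.10, 8.62 and 6.89 in KO AM251 livers and 6.77, 6.94, 7.40 and 8.89 in KO vehicle livers. KO AM251 arrays were thus scattered as well, and the AM251 effect on Saa2 in KO livers was 1.16 ± 0.97 (adjusted p = 0.999). Orm2, an orosomucoid, had 6.32, 6.52, 6.37, 9.03 and 6.49 in WT AM251 livers and 11.42, 9.81, 6.90, 7.07 and 6.72 in WT vehicle livers. It had 8.25, 5.60, 7.13, 6.34 and 6.23 in KO AM251 livers and 5.74, 5.34, 5.60 and 6.88 in KO vehicle livers. WT vehicle array 1 is also the lowest of its group for Fasn, Acly, Elovl6, Thrsp, Me1, Pnpla3 and Scd1.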
